A study of Mus musculus with 2 samples.

Results

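Granzymes are serine proteases that cytotoxic lymphocytes store in granules together with perforin, the protein that forms pores in the membrane of a target cell and lets granzymes in. In acute graft-versus-host disease (aGvHD) after allogeneic hematopoietic cell transplantation (allo-HCT), donor T cells attack host tissues, and the granule pathway is one of the ways in which they kill. Granzyme B cleaves caspases and their substrates after aspartate, granzymes A and K cut after basic residues, granzyme M cuts after methionine and leucine, and granzyme C is a mouse enzyme related to granzyme B.

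The transcripts of 6 genes were followed in donor T cells of the spleen: the granzyme genes Gzma, Gzmb, Gzmc, Gzmk and Gzmm and the perforin gene Prf1. They were chosen by symbol, and all 6 were found among the 32285 genes of the count tables. Recipients were lethally irradiated BALB/c mice that received T cell-depleted bone marrow (TCD-BM) and purified splenic T cells of C57BL/6 donors. The sort took CD45+ TCRβ+ cells that carried the donor marker H2kb+ and lacked the host marker H2kd (H2kd-), from pooled spleens, for droplet single-cell RNA sequencing at day +7 (1 library) and day +14 (1 library) after allo-HCT. The labels and a legend of the study give different doses of donor T cells, both libraries have PBS in their names with no meaning given, and the sort text of both speaks of day +7, so the day was taken from the titles. No age is in the labels, and no untreated T cells were analysed here, so the comparison is between 2 time points without a baseline.

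Cells were kept with 500 to 7500 genes and at most 15% of their unique molecular identifiers (UMIs) from mitochondrial genes. This left 7179 of 7355 barcodes at day +7 and 7794 of 8043 at day +14, with medians of 9210 and 8144 UMIs per cell, and the 2 tables shared 20 barcodes. To read cell types at equal depth, each cell was thinned at random to 4000 UMIs, for which 198 and 969 cells were too shallow. The CD8 gate (a UMI of Cd8a or Cd8b1, none of Cd4 or Foxp3) held 5529 and 5518 cells, the CD4 gate (a UMI of Cd4, none of Cd8a, Cd8b1 or Foxp3) 306 and 404, and the Foxp3+ gate 37 and 30. Cells with at least 10 UMIs of myeloid or erythroid genes and at most 2 of T cell receptor genes formed a non-T gate (118 and 54 cells), which was used as a measure of free RNA.

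Levels are counts per 1000000 UMIs (CPM) of all cells in a gate. A UMI counts a molecule once whatever its length, so CPM values can be set side by side between genes, although capture can differ by gene. Brackets hold 95% intervals (exact Poisson for CPM, Clopper-Pearson for shares, conditional binomial for ratios), which cover counting error only. With 1 library per day there is no replicate check of any difference, no test was run, and the day cannot be told apart from the library. A gene was counted as past 2-fold at a log2 ratio of 1 or more, or of -1 or less, and only genes whose mean over the 2 groups reached 10 CPM were counted in this way.

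The 6 genes lie in 4 places of the mouse genome (mm10, GENCODE M21). Gzma (ENSMUSG00000023132, chr13:113093825-113100981) and Gzmk (ENSMUSG00000042385, chr13:113171608-113225908) are neighbours on the minus strand with a gap of 70.6 kb. Gzmb (ENSMUSG00000015437, chr14:56258838-56262260) and Gzmc (ENSMUSG00000079186, chr14:56231441-56234656) lie 24.2 kb apart on the minus strand, near Gzmd, Gzme, Gzmf, Gzmg and Gzmn. Gzmm (ENSMUSG00000054206, chr10:79689020-79695261) and Prf1 (ENSMUSG00000037202, chr10:61297833-61304680) are far apart on the plus strand of chromosome 10. Reads of Gzmc can be shared with its close relatives in the cluster, so its level is uncertain.

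The promoters of both neighbouring pairs are shown because Gzma and Gzmk differed in opposite directions between the days, while Gzmb and Gzmc were both lower at day +14. The sequences are from RefSeq (build GRCm38.p6), on the minus strand, read 5′ to 3′ from 250 bases before the start of transcription to 30 bases into the transcript. They cover chr13:113100952-113101231 for Gzma, chr13:113180936-113181215 for Gzmk, chr14:56262305-56262584 for Gzmb and chr14:56234628-56234907 for Gzmc. RefSeq and GENCODE give different starts for Gzmb and Gzmk: the Gzmb window lies wholly upstream of the GENCODE gene, and the Gzmk window lies inside the GENCODE gene. Distances below are from the RefSeq start. Capitals mark matches on either strand to the T-box core GGTGTG, the Runx core TGTGGT, the AP-1 site TGACTCA or the cyclic AMP response element (CRE) half-site TGACGT.
Gzma: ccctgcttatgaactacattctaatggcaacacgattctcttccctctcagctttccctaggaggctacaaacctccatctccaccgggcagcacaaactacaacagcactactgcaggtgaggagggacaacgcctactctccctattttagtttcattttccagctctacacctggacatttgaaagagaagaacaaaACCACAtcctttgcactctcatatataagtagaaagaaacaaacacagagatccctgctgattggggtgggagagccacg
Gzmk: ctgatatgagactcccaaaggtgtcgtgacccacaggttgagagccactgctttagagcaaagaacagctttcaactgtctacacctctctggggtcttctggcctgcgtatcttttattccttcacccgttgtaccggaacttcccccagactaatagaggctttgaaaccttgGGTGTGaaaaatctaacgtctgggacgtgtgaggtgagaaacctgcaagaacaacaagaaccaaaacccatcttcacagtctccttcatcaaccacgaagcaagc
Gzmb: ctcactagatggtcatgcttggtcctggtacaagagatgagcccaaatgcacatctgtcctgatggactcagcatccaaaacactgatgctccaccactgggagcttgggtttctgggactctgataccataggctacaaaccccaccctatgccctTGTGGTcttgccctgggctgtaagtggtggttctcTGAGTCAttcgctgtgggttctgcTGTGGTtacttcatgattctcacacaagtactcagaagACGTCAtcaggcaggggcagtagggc
Gzmc: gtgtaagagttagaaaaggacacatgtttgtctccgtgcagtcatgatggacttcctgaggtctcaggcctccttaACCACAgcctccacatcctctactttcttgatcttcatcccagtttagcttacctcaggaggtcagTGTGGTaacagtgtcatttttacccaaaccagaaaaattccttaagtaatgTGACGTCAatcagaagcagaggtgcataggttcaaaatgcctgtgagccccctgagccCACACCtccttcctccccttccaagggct

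The Gzma window held 1 match, a Runx core that begins 50 bases before the start, and the Gzmk window held 1 match, a T-box core 75 bases before the start. The Gzmb window held 2 Runx cores (93 and 34 bases before the start), an AP-1 site (58 bases before) and a CRE half-site just after the start. In the Gzmc window, 2 CRE half-sites on opposite strands overlapped, 57 and 55 bases before the start, beside 2 Runx cores (174 and 108 bases before) and a T-box core at the start. Thus the Runx core was in 3 of these 4 windows and the T-box core in 2. Of all 32841 RefSeq promoter windows of 300 bases, 19.05% held the T-box core, 16.8% the Runx core, 5.204% the AP-1 site and 7.515% the CRE half-site. The table also held Prf1 (1 Runx core and 1 CRE half-site) and Gzmm (2 windows, 1 with a Runx core and 1 with a T-box core), so all 6 genes were matched. A match describes letters, and binding was not measured.

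In the CD8 gate, 4 of the 6 genes (Gzma, Gzmb, Gzmc and Gzmm) were lower by 2-fold or more at day +14, and 0 were higher. Among the 6825 genes counted, 1.49% were lower and 2.08% higher by as much, with a median log2 ratio of 0.19. With counts scaled by the median ratio of genes, a shift of 0.22 on the log2 scale, these shares were 2.14% and 1.25%, and 4 of the 6 genes were again lower. Counted from the lowest ratio, Gzmm stood at rank 4, Gzma at 5, Gzmc at 7 and Gzmb at 43. Gzmc and Gzmm passed the 10 CPM minimum through their day +7 level alone, so their ratios had to be large. Together the 6 genes took 0.584% of the UMIs of the CD8 gate at day +7 and 0.111% at day +14.

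Perforin RNA was close at both days. Prf1 went from 200.2 CPM [197, 204] at day +7 to 167 CPM [164, 171] at day +14, with a log2 ratio of -0.26 [-0.29, -0.22], which is within 2-fold.

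Gzma was the most abundant of the genes at day +7 and had the widest gap in CPM. Its level went from 3955 CPM [3940.2, 3970.4] at day +7 to 236 CPM [232, 239.5] at day +14. The log2 ratio was -4.07 [-4.09, -4.04], or 16.8-fold lower. Gzma gave 67.8% of the UMIs of the 6 genes at day +7 and 21.2% at day +14.

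Gzmb was lower as well, by less. It went from 1516 CPM [1507, 1525] to 543 CPM [537, 549], with a log2 ratio of -1.48 [-1.499, -1.46], or 2.79-fold lower. The order of the 2 genes thus turned: for each Gzmb UMI the CD8 gate held 2.61 Gzma UMIs at day +7 and 0.434 at day +14.

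Gzmk alone was higher at day +14, though within 2-fold. It went from 109 CPM [107, 112] to 161 CPM [158, 164], with a log2 ratio of 0.56 [0.51, 0.60], which is above the median of all genes.

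Gzmm and Gzmc were the scarcest of the 6 genes at both days. Gzmm went from 28.4 CPM [27.1, 29.7] to 1.63 CPM [1.33, 1.96] (1886 and 108 UMIs), with a log2 ratio of -4.12 [-4.42, -3.84]. Gzmc went from 27.1 CPM [25.9, 28.4] to 2.85 CPM [2.46, 3.28] (1802 and 189 UMIs), with a log2 ratio of -3.25 [-3.48, -3.03]. From highest to lowest the order was Gzma, Gzmb, Prf1, Gzmk, Gzmm and Gzmc at day +7, where the intervals of the last 2 overlapped, and Gzmb, Gzma, Prf1, Gzmk, Gzmc and Gzmm at day +14.

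**Figure D1:**
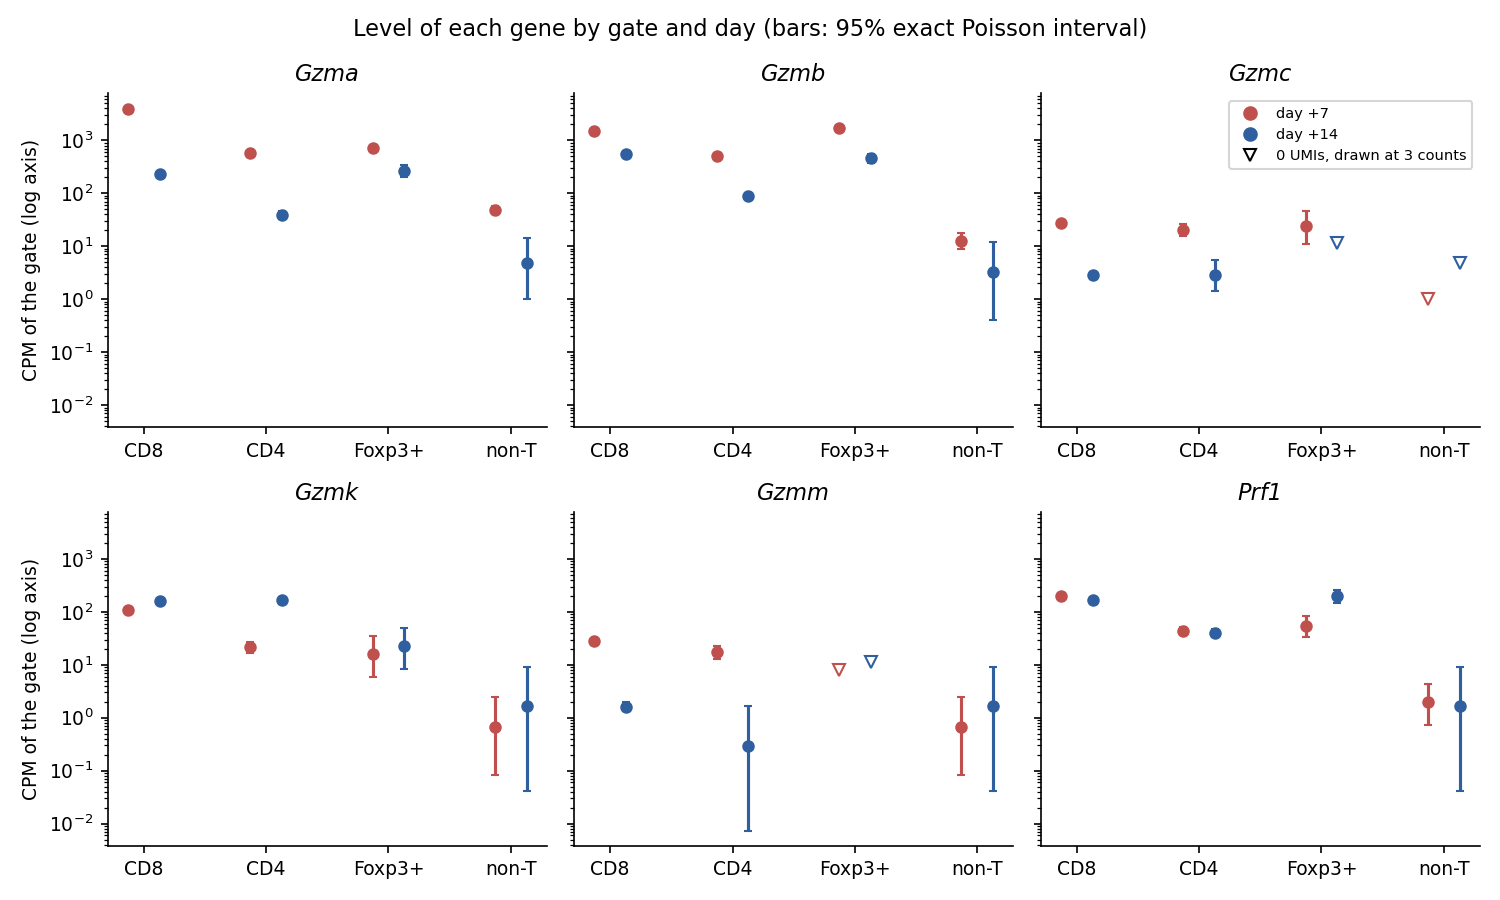
CPM of each gene (log axis) in the CD8, CD4, Foxp3+ and non-T gates at day +7 and day +14, with exact Poisson intervals and open triangles at 3 counts where no UMI was seen. Gzma in the CD8 gate goes from 3955 to 236 CPM, while Gzmk in the CD4 gate goes from 21.3 to 169.7 CPM.

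The non-T gate shows what free RNA could add. At day +7 it held 48.2 CPM [40.6, 56.8] of Gzma and 12.8 CPM [9.06, 17.6] of Gzmb, and each of the other genes was at 2.02 CPM or less, with no UMI of Gzmc. At day +14 Gzma was at 4.94 CPM [1.02, 14.4] and Gzmm at 1.65 CPM [0.0417, 9.17] (1 UMI), so the day +14 level of Gzmm in the CD8 gate was not above background measured in this way. Gzmc had no UMI there, where 3 counts would be 4.94 CPM, so its 2.85 CPM in the CD8 gate was not shown to be above background either. With the non-T level subtracted, the log2 ratio between days in the CD8 gate was -4.08 for Gzma, -1.48 for Gzmb and 0.55 for Gzmk, and Gzmm had no value.

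Natural killer markers differed between the days in the same direction as most of the genes. Of Ncr1, Klrb1c, Klra8 and Klra4, the last 2 had no UMI in the CD8 gate at either day, and the summed level of all 4 went from 7.45 CPM at day +7 to 0.572 CPM. Without the cells that held Ncr1 or Klrb1c, the log2 ratio was -4.07 for Gzma and -4.10 for Gzmm. Myeloid markers were at 72.9 and 63.2 CPM, and erythroid markers at 9.93 and 18.7 CPM.

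At equal depth, the gap in Gzma lay both in how many cells held it and in how much each held. A Gzma UMI was found in 82.98% [81.96, 83.96] of CD8-gate cells at day +7 and 18.1% [17.1, 19.2] at day +14, and the cells with Gzma held a mean of 21.2 and 6.81 UMIs of it. Cells with 10 or more Gzma UMIs made up 50.3% (2781 cells) and 3.28% (181 cells). Over all UMIs, before thinning, the 10% of cells with the most Gzma held 40.6% of its UMIs at day +7 and 90.4% at day +14. What was left at day +14 thus sat in few cells, and the part of depth in these shares was not tested.

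Gzmb was spread over more cells. At equal depth it was found in 91.4% [90.7, 92.2] of CD8-gate cells at day +7 and 65.7% [64.4, 66.9] at day +14. Over all UMIs, before thinning, the 10% of cells with the most Gzmb held 39.6% and 41.97% of its UMIs. The median cell at equal depth held 4 Gzmb UMIs at day +7 and 1 at day +14, beside 10 and 0 for Gzma. Prf1 was found in 47.8% [46.5, 49.1] and 44.3% [43.01, 45.7] of cells, with a mean of 1.599 and 1.57 UMIs where found.

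Gzmk was found in a larger share of cells at day +14, at a similar mean where found. It was found in 29.9% [28.7, 31.2] of CD8-gate cells at day +7 and 42.1% [40.8, 43.5] at day +14, with a mean of 1.63 and 1.598 UMIs where found. Most of these cells (988 and 1421) held 1 Gzmk UMI, so share and amount per cell cannot be told apart for this gene. Gzmm was found in 9.19% [8.44, 9.98] and 0.707% [0.503, 0.965] of cells, and Gzmc in 3.53% [3.06, 4.05] and 0.5799% [0.397, 0.818]. Gzmc was uneven, and the cell with the most gave 102 of 1802 UMIs at day +7 and 37 of 189 at day +14. In the non-T gate, with a median depth of 25026 UMIs against 9390.0 in the CD8 gate, Gzma was found in 4.24% [1.39, 9.61] of cells and Gzmb in 3.39% [0.931, 8.45] at day +7. At day +14, with median depths of 8492.5 and 9426 UMIs, Gzma was found in 1 of 54 non-T cells and the other 5 genes in 0 of 54.

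**Figure D2:**
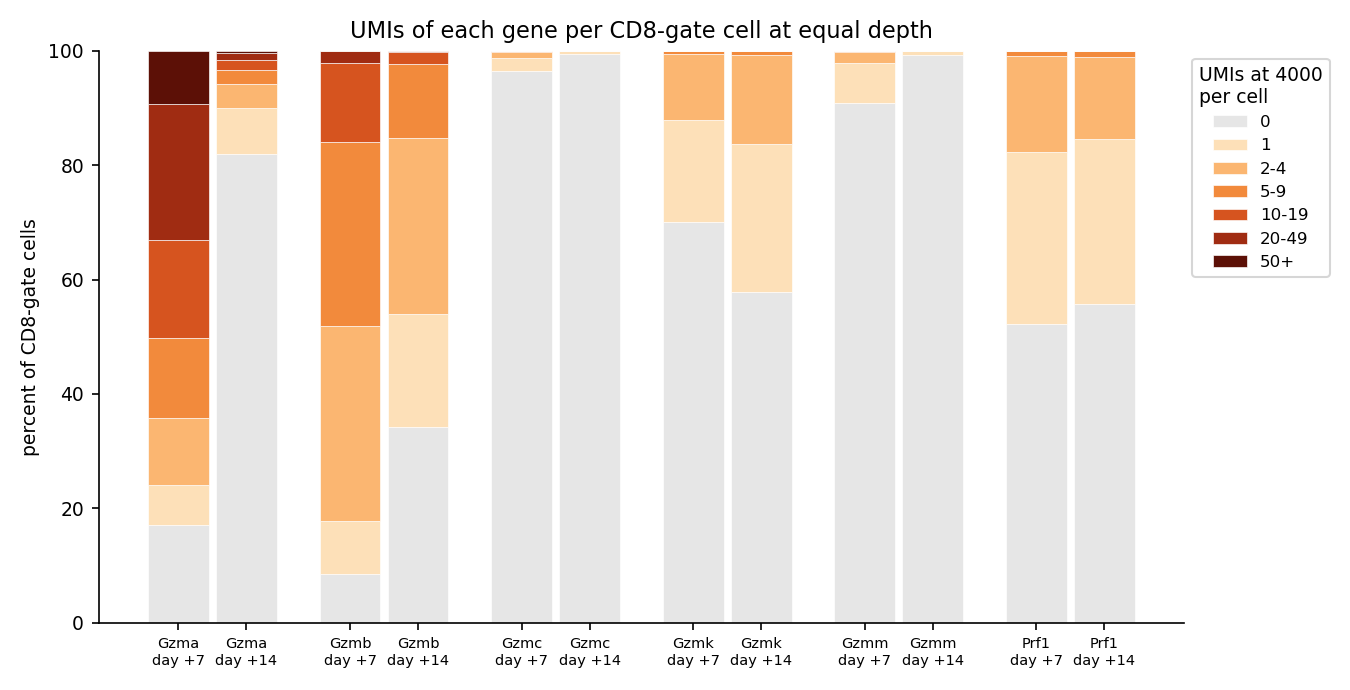
Percent of CD8-gate cells (vertical axis) by the number of UMIs of each gene at 4000 UMIs per cell, for day +7 and day +14. Cells with no Gzma UMI go from 17.02% to 81.9%, and cells with no Prf1 UMI from 52.2% to 55.7%.

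Since Gzma and Gzmk are neighbours, CD8-gate cells were split by which of them they held. At day +7, 55.1% [53.8, 56.4] held Gzma without Gzmk, 27.9% [26.7, 29.1] held both, 2.06% [1.704, 2.47] held Gzmk without Gzma and 14.96% [14.03, 15.9] held neither. At day +14 the shares were 8.95% [8.21, 9.74], 9.17% [8.42, 9.96], 32.96% [31.7, 34.2] and 48.9% [47.6, 50.2]. Cells with Gzmk alone thus numbered 114 of 5529 at day +7 and 1819 of 5518 at day +14. Of the cells with Gzmk, 93.1% also held Gzma at day +7 and 21.8% at day +14, against 78.7% and 15.5% of cells without Gzmk. Were the 2 genes found independently, 24.8% and 7.64% of cells would have held both. The share with Gzmk alone thus also depends on how many cells held Gzma.

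**Figure D3:**
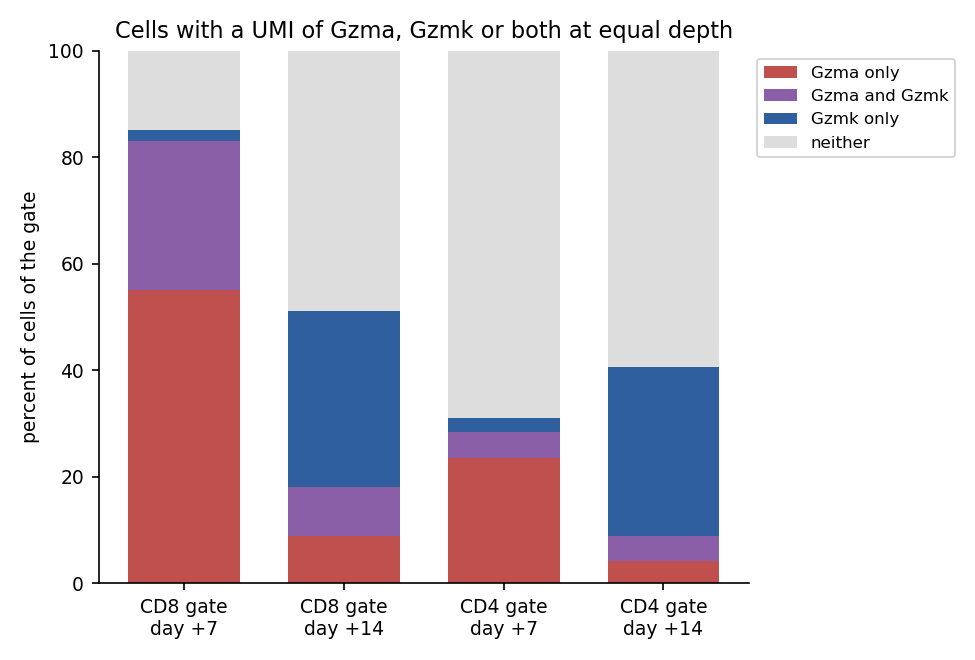
Percent of cells (vertical axis) with a UMI of Gzma only, Gzmk only, both or neither at 4000 UMIs per cell, by gate and day. In the CD8 gate Gzmk-only cells go from 2.06% to 32.96%, and in the CD4 gate from 2.61% to 31.7%.

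In the CD4 gate, 3 of 5 genes counted (Gzma, Gzmb and Gzmc) were lower by 2-fold or more at day +14 and 1 (Gzmk) was higher, where 1.33% and 4.45% of 6985 genes were. Gzma went from 573 CPM [546, 601] at day +7 to 38.7 CPM [32.4, 45.9] at day +14, with a log2 ratio of -3.89 [-4.15, -3.63]. Gzmb went from 507 CPM [482, 533] to 90.9 CPM [81.04, 102], with a log2 ratio of -2.48 [-2.66, -2.30]. Both had the same direction as in the CD8 gate. Gzmc, which passed the minimum through day +7 alone, had 62 and 10 UMIs, and Gzmm, below the minimum, had 52 and 1.

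Gzmk in the CD4 gate was 7.98-fold higher at day +14. Its level went from 21.3 CPM [16.4, 27.2] to 169.7 CPM [156, 184], a log2 ratio of 2.996 [2.62, 3.39], at rank 18 from the highest of the genes counted. A Gzmk UMI was found in 7.52% [4.82, 11.1] of CD4-gate cells at day +7 and 36.4% [31.7, 41.3] at day +14. Prf1 was at 43.6 CPM [36.4, 51.7] and 40.2 CPM [33.7, 47.5], and the interval of its log2 ratio, -0.12 [-0.47, 0.24], held 0.

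Set against the CD8 gate within a day, the CD4 gate had less of most of the genes. At day +7, 4 of 6 were lower by 2-fold or more and 0 higher, where 0.832% and 1.63% of 6609 genes were. The log2 ratio of CD4 over CD8 was -2.79 [-2.86, -2.72] for Gzma, -2.36 [-2.74, -2.01] for Gzmk, -2.20 [-2.46, -1.95] for Prf1 and -1.58 [-1.65, -1.51] for Gzmb. For Gzma, 1 cell gave 174 of the 1723 UMIs of the CD4 gate. Its ratio lay outside the interval in all 5 alternatives of processing, from -3.18 to -2.90. Gzmm (-0.71 [-1.14, -0.32]) and Gzmc (-0.39 [-0.78, -0.03]) were within 2-fold. With gates read from all UMIs, Gzmc in the CD4 gate was at 66.4 CPM, 76.8% of it from 1 cell, and at 15.5 CPM without that cell.

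At day +14, 3 of 4 genes counted were lower by 2-fold or more in the CD4 gate and 0 higher, where 0.808% and 2.56% of 7182 genes were. The log2 ratio was -2.61 [-2.87, -2.36] for Gzma, -2.58 [-2.74, -2.42] for Gzmb and -2.06 [-2.31, -1.82] for Prf1. Gzmk was at 0.08 [-0.05, 0.20], an interval that holds 0, while at day +7 it was 5.13-fold lower in the CD4 gate. Over all UMIs, RNA of Cd8a and Cd8b1 was at 24.9 and 31.95 CPM in the CD4 gate at the 2 days, against 917 and 1040.2 CPM in the CD8 gate. The gates were defined by these genes, so the direction of this gap was fixed in advance and does not measure how pure the gates were.

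The Foxp3+ gate was read from Foxp3, a transcription factor of regulatory T cells, and held few cells. Its RNA of Cd8a and Cd8b1 went from 107 to 57.6 CPM between the days beside Cd4 at 91.3 and 111 CPM, so the gate was mixed, and the part of CD8 cells in the values below was not tested. Gzmb led the 6 genes there at both days. Gzmb went from 1735 CPM [1604, 1875] at day +7 (34 of 37 cells with a UMI at equal depth) to 457 CPM [379, 547] at day +14 (15 of 30 cells). The log2 ratio of Foxp3+ over CD4 was 1.78 [1.64, 1.91] at day +7 and 2.33 [2.01, 2.64] at day +14. At day +7 Gzmb was the gene of the 6 higher by 2-fold or more (1 of 5 counted, 0 lower), where 6.29% of 6739 genes were higher and 5.07% lower. At day +14, 3 of 4 were higher and 1 lower, where 8.87% and 7.27% of 7295 genes were.

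Part of these counts rested on single cells. Gzma in the Foxp3+ gate was at 715 CPM [631, 806] and 265 CPM [206, 335], but 1 cell gave 131 of 266 UMIs at day +7 and 1 gave 64 of 69 at day +14. Without it, Gzma at day +14 was at 20.8 CPM, and the log2 ratio over the CD4 gate was -0.74 in place of 2.78. Prf1 was at 53.7 CPM [32.8, 82.98] and 196 CPM [146, 258], with 39 of 51 UMIs at day +14 in 1 cell and 48.5 CPM without it. So of the genes called in this gate, Gzma and Prf1 at day +14 lost the call without 1 cell.

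Gzmk was low in the Foxp3+ gate at both days, with 6 UMIs each time. At day +14 its 23.1 CPM [8.46, 50.2] stood below the CD4 gate, at a log2 ratio of -2.88 [-4.33, -1.75]. Gzmm had no UMI at either day, where 3 counts would be 8.06 and 11.5 CPM. Between days, 3 of 5 genes counted were lower in the Foxp3+ gate and 1 (Prf1) higher by 2-fold or more, where 6.17% and 15.2% of 6982 genes were. These were Gzma, Gzmb (-1.92 [-2.22, -1.64]) and Gzmc. Gzmc had 9 UMIs at day +7 and 0 at day +14 and passed the minimum through day +7 alone, so it had to be lower. Prf1 was higher through 1 cell, as given above, so these counts say little of the genes in this gate.

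Many of the cells were dividing, so the CD8 gate was split by 20 genes of S phase and G2/M into cycling cells (8 or more UMIs of these genes at equal depth) and non-cycling cells (3 or fewer). There were 2901 cycling and 1909 non-cycling cells at day +7, and 3471 and 1430 at day +14. Between days, 4 of 6 genes were lower by 2-fold or more in cycling cells (Gzma, Gzmb, Gzmc and Gzmm) and 3 of 5 counted in non-cycling cells (Gzma, Gzmb and Gzmm), and 0 were higher in either. Over all genes, 1.38% were lower and 1.87% higher in cycling cells, and 1.54% and 4.47% in non-cycling cells. Gzmc and Gzmm in cycling cells and Gzmm in non-cycling cells passed the minimum through day +7 alone, so they had to be lower. The log2 ratio of Gzma was -4.13 [-4.16, -4.10] in cycling and -3.68 [-3.73, -3.63] in non-cycling cells, and that of Prf1 was -0.35 [-0.39, -0.30] and 0.24 [0.15, 0.33].

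**Figure D4:**
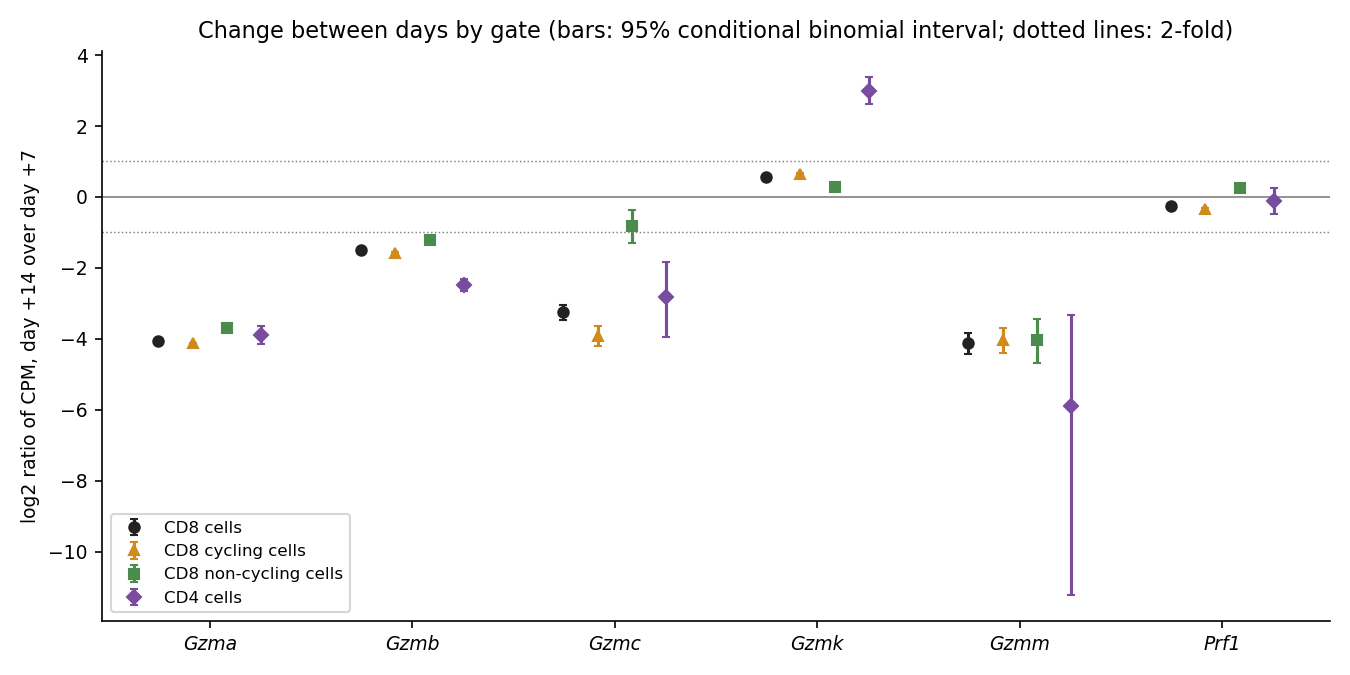
Log2 ratio of CPM at day +14 over day +7 for each gene, by set of cells, with conditional binomial intervals and lines at 2-fold. Gzma and Gzmb lie below the lower line in each set drawn, and Gzmk in the CD4 gate lies above the upper line at 2.996.

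Within a day, Gzmb was higher and Gzma lower in cycling than in non-cycling CD8-gate cells. Gzmb was at 1669.9 against 1036 CPM at day +7 and 563 against 444 CPM at day +14, with log2 ratios of 0.69 [0.66, 0.71] and 0.34 [0.30, 0.39]. Gzma was at 3693 against 4569.9 CPM and 211 against 356 CPM, with log2 ratios of -0.31 [-0.32, -0.29] and -0.75 [-0.81, -0.70]. Both gaps were within 2-fold, but with gates read from all UMIs Gzma at day +14 was past it (222 against 516 CPM). Gzmm was lower in cycling cells at day +7, at a log2 ratio of -0.87 [-1.01, -0.72]. At day +14 it was at 1.43 and 2.59 CPM (74 and 24 UMIs), near the non-T level of 1.65 CPM, and no direction was read there.

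Gzmc at day +7 was the gene of the 6 past 2-fold in this comparison (1 of 6 higher and 0 lower, where 8.63% and 1.93% of 6537 genes were). It was at 34.1 CPM [32.4, 35.9] in cycling and 10.1 CPM [8.53, 11.96] in non-cycling cells, a log2 ratio of 1.75 [1.501, 2.01]. At day +14, 0 of 4 genes counted were higher and 0 lower, where 8.06% and 2.66% of 7060 genes were.

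Cycling cells with more G2/M than S transcripts (1893 and 1986 cells) were set against those with more S transcripts (892 and 1363). None of the 6 genes counted at day +7 and none of the 4 at day +14 was past 2-fold, where 1.58% were higher and 0.564% lower in G2/M at day +7, and 1.74% and 0.357% at day +14. Gzmk was slightly higher in G2/M at both days, with log2 ratios of 0.32 [0.22, 0.41] and 0.24 [0.18, 0.31], and so was Gzma, with 0.15 [0.14, 0.17] and 0.19 [0.13, 0.25]. For Prf1 the intervals held 0 at both days.

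Whether the genes were found in the same cells was read in the CD8 gate at 4000 UMIs per cell, over 15 pairs. Cells with none of the 6 genes made up 2.79% [2.37, 3.25] at day +7 and 12.98% [12.1, 13.9] at day +14, and cells with 3 or 4 of them 38.9% and 17.3% at day +7 against 19.6% and 4.19% at day +14. The odds ratio of finding both genes of a pair was above 1 in 11 pairs at day +7 and 10 at day +14, and 2 or more in 5 and 3.

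Gzma and Gzmb had the highest odds ratio at day +7. Of cells with Gzma, 94.7% held Gzmb, against 75.7% of cells without Gzma (odds ratio 5.73), and at day +14 the shares were 80.6% and 62.4% (odds ratio 2.504). Gzmk was in 33.6% of cells with Gzma and 12.1% without at day +7 (odds ratio 3.67), and in 50.6% and 40.3% at day +14 (odds ratio 1.52). Perforin RNA went with Gzmb: Prf1 was in 49.7% of cells with Gzmb and 27.1% without at day +7, and in 49.6% and 34.2% at day +14. With Gzmk the odds ratio of Prf1 was near 1, at 1.098 and 1.08.

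Gzmc was found less with Gzmk and more with its neighbour Gzmb. Of cells with Gzmc at day +7, 16.9% held Gzmk, against 30.4% of cells without Gzmc (odds ratio 0.466). Gzmb was in 96.9% of cells with Gzmc and 91.2% without (odds ratio 3.02). At day +14 only 32 cells held Gzmc, 29 of them with Gzmb and 7 with Gzmk. Over cells, Pearson's r of ln(1 + UMIs) ran from -0.06 to 0.29 at day +7 (n = 5529) and from -0.02 to 0.23 at day +14 (n = 5518), which is weak, over cells that share 1 library and the depth set by thinning.

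**Figure D5:**
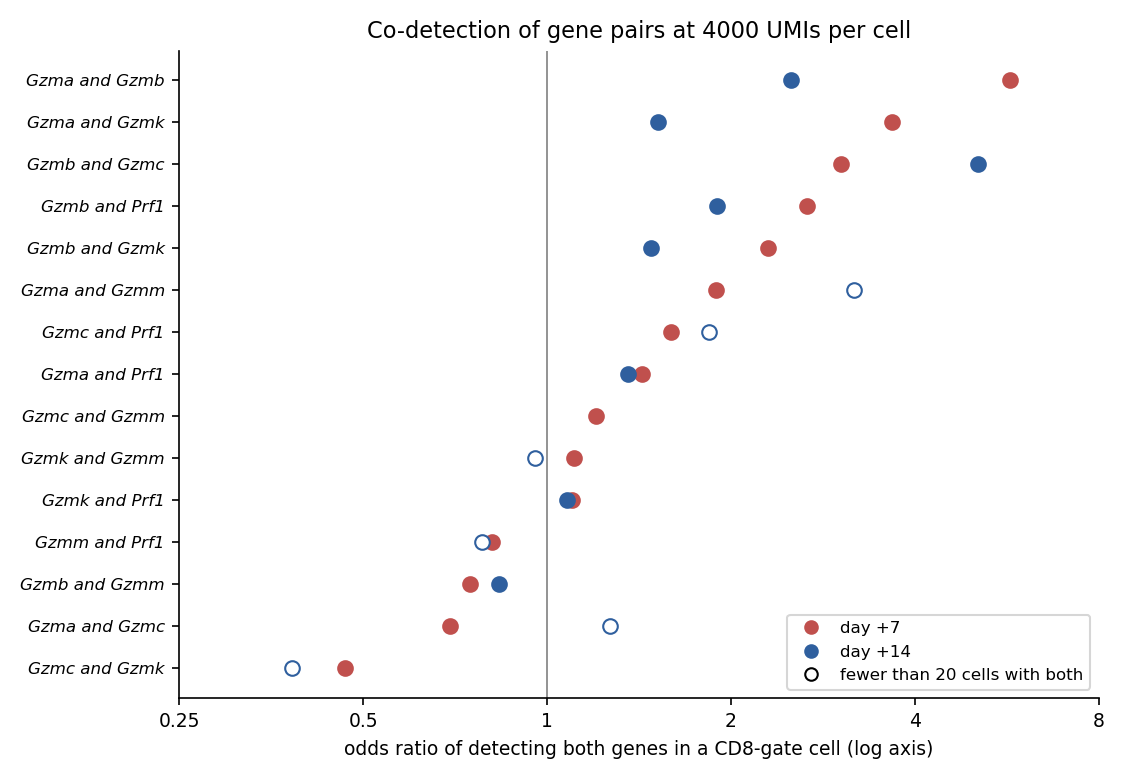
Odds ratio (log axis) of finding both genes of each pair in a CD8-gate cell at 4000 UMIs, at day +7 and day +14, with open points where fewer than 20 cells held both and no point for Gzmc with Gzmm at day +14, which no cell held together. Gzma with Gzmb goes from 5.73 to 2.504, and Gzmc with Gzmk lies below 1 at both days.

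CD8-gate cells were also classed by their Gzma UMIs at equal depth (0, 1 to 9, 10 or more). At day +7, Gzmb was at 1117, 1468 and 1691 CPM in these classes, Gzmk at 34.9, 76.1 and 159 CPM and Gzmm at 14.3, 17.4 and 41.2 CPM, all highest where Gzma was highest. At day +7 Gzmc had the opposite order (44.9, 29.7 and 18.9 CPM), and Prf1 was level (196, 203 and 199.8 CPM). At day +14, Gzmb was at 475, 780.2 and 1230.4 CPM, Gzmk at 153, 189.5 and 232 CPM and Prf1 at 159, 198 and 252 CPM, each higher with more Gzma. Gzmc was then at 1.99, 5.604 and 13.1 CPM (107, 61 and 21 UMIs), but few cells held it. At equal depth it was found in 0.553%, 0.611% and 1.10% of these classes, and 1 cell gave 37 of the 189 UMIs of the gate. For this reason no day +14 order was read for Gzmc. The 181 cells with 10 or more Gzma UMIs at day +14 had a median of 6927 UMIs, against 9401.5 in cells with none, and the part of depth in these values was not tested.

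Some further genes were read in the same classes and were chosen after their values were seen. Tcf7, a transcription factor of naive and memory-like T cells, was at 30.1, 7.196 and 2.33 CPM across the Gzma classes at day +7 and 18.6, 6.71 and 6.26 CPM at day +14. Klrg1, a receptor of late effector cells, was at 8.55, 23.5 and 62.4 CPM and 36.5, 60.2 and 95.8 CPM. Eomes, a T-box factor of cytotoxic lymphocytes, was at 14.5, 20.02 and 24.8 CPM and 91.4, 91.95 and 82.7 CPM. Tcf7 was thus lower and Klrg1 higher where Gzma was present, at both days.

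The genes most like each of the 6 were taken by the smaller of the 2 daily values of r over CD8-gate cells, among 2302 genes at 50 CPM or more. For Gzma this was the chemokine gene Ccl5 (r = 0.30 and 0.18), then Tmsb4x and Nkg7, and for Gzmb the actin gene Actb (0.28 and 0.25), then Lgals1 and Actg1. Tmsb4x, Ly6c2 and Ctla2a came first for Gzmk, Havcr2, Lgals3 and Ccl3 for Prf1, Tnfrsf18, Capg and Nucb1 for Gzmc, and Ms4a4b, Ly6c2 and Epsti1 for Gzmm. These values are weak and describe the cells of 2 libraries.

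Of the other granzyme genes of chromosome 14, none of 5 reached 10 CPM in the CD8 gate. Gzmf had 341 UMIs at day +7 and 293 at day +14, Gzme 33 and 68, Gzmd 8 and 47, Gzmg 3 and 0, and Gzmn none. At day +14 Gzmf thus had more UMIs than Gzmc, which had 189.

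The genes that store, process and inhibit granzymes were mostly within 2-fold between days in the CD8 gate. Of 8 listed, 6 were counted, 1 was lower and 0 higher by 2-fold or more, and the median log2 ratio was -0.18 beside 0.19 over all genes, of which 1.49% were lower and 2.08% higher. The lower gene was Serpinb6b, of the serpin family of protease inhibitors, which went from 522 to 208 CPM (log2 ratio -1.33 [-1.36, -1.30]). Serpinb9, an inhibitor of granzyme B, went from 183 to 117 CPM (-0.64 [-0.69, -0.60]). Srgn, the granule proteoglycan serglycin, was at 606 and 667 CPM, and Ctsc, the protease that activates granzymes, at 95.4 and 85.2 CPM.

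The genes counted of granule movement and release were within 2-fold in the CD8 gate. Of 15 listed, 14 were counted, 0 were past 2-fold in either direction, and the median log2 ratio was 0.51, beside 0.19 over all genes, on a scale that shifts by 0.22 with the median ratio of genes. Nkg7, a granule membrane protein, went from 2032 to 2405 CPM (0.24 [0.23, 0.25]), and Vamp8, a vesicle fusion protein, from 245 to 379 CPM (0.63 [0.60, 0.66]). Rab27a, which docks granules, was at 55.2 and 52.1 CPM. In the CD4 gate, 1 of 6 genes counted of the first list was lower (Serpinb6b, -1.12 [-1.27, -0.98]) and 1 of 14 of the second was higher (Stx11, a fusion protein of granule release, 1.26 [0.83, 1.71]), where 1.33% of all genes were lower and 4.45% higher. The median log2 ratios were -0.27 and 0.44, beside 0.17 over all genes.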

How the data were processed

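Single-cell RNA-seq of sorted donor T cells was analysed from the deposited count matrices, 1 library at day +7 and 1 at day +14. Per the labels and the submitters' processing notes, the authors made these UMI counts per gene and barcode with Cell Ranger 6.1.2 and the mm10 genome. The study also removed doublets predicted by Scrublet. Here the automatic Scrublet threshold (scanpy 1.11.5) marked 2 and 0 barcodes, so it was not used and doublets were left in, with their removal at an assumed rate as an alternative.

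Barcodes with 500 to 7500 genes and at most 15% mitochondrial UMIs were kept. Gates were read from cells thinned to 4000 UMIs without replacement (seed 1), with T cells defined by at least 3 UMIs of 6 T cell receptor genes and more of these than of 10 myeloid or 8 erythroid genes. Total UMIs were 87124828 and 84233811. UMIs of a gate were summed over all its cells and given as CPM with 95% intervals for counting error. No test was run, since each day is 1 library. Calculations used Python 3.11.15, numpy 2.4.6, scipy 1.17.1 and pandas 2.3.3, and the ratio code was tested on simulated data.

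The 6 genes and the gene lists were chosen with earlier results of these data known. The rule named all 6 genes, every gene of the granule lists and the 3 genes most like each of the 6. Alternatives covered the mitochondrial limit, depth and seed of thinning, gate definitions, scaling, per-cell means, the CPM minimum, doublets and natural killer markers, and others were chosen after seeing the data. The levels of 1 further list of cell type markers are not reported here.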

Additional observations from a re-analysis of the deposited data

Results flagged for a closer look

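The direction of the gap between cycling and non-cycling CD8-gate cells was opposite at the 2 days for 3 genes, for Gzmc through 1 cell, and the difference between days was not tested. The log2 ratio of Gzmc was 1.75 at day +7 and -1.33 at day +14, where 1 non-cycling cell gave 37 of 53 Gzmc UMIs. The day +14 direction rested on that cell: with the top cell of each set left out, Gzmc was at 1.88 CPM in cycling and 1.73 CPM in non-cycling cells, and with gates from all UMIs it was at 3.10 and 3.01 CPM. Gzmk had -0.16 and 0.19, and Prf1 had 0.20 and -0.39. The ratio of day +14 over day +7 for Prf1 was -0.35 in cycling and 0.24 in non-cycling cells, which was not tested either.

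The barcodes outside the limits on genes and mitochondrial UMIs, 176 at day +7 and 249 at day +14, also held RNA of these genes above the level that 3 counts allow. At day +7 Gzma was at 1493 CPM, Gzmb at 682 CPM, Gzmk at 55.3 CPM and Prf1 at 68.5 CPM. At day +14 Gzma was at 68.1 CPM, Gzmb at 164 CPM, Gzmk at 72.8 CPM and Prf1 at 58.7 CPM. Gzma and Gzmb were lower at day +14 in these barcodes as well.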

How the results depend on the processing

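No paired analysis was possible because each day is 1 library. Over the alternatives run, the log2 ratio between days in the CD8 gate ranged from -4.29 to -3.84 for Gzma, from -1.70 to -1.34 for Gzmb, from 0.34 to 0.58 for Gzmk and from -0.48 to -0.16 for Prf1. The count of genes lower by 2-fold or more was 4 in each alternative run at the 10 CPM minimum, apart from 3 with the non-T level subtracted, which left no value for Gzmm. Of 214 alternative values of 35 ratios, 198 kept the sign and 135 lay within the counting interval of the main value. The Foxp3+ gate varied most: the log2 ratio of Gzma over the CD4 gate at day +14 turned to -1.71 with gates from all UMIs, -1.76 with cells thinned to 2000, -1.94 with 2 Foxp3 UMIs required and -0.74 without the top cell. Without the top cell, 1 gene in place of 3 was higher there at day +14. With gates from all UMIs or cells thinned to 2000, 2 genes in place of 1 were lower. At day +7, 3 genes in place of 1 were higher with cells thinned to 2000, and 1 in place of 0 was lower with per-cell means, gates from all UMIs, 2 Foxp3 UMIs or the top cell left out. With gates from all UMIs, 1 gene in place of 0 (Gzmc) was higher in the CD4 than in the CD8 gate at day +7, a value that rests on 1 cell. Between cycling and non-cycling cells, 1 gene in place of 0 was lower at each day with gates from all UMIs, not the same gene. It was Gzmm at day +7 (23.6 against 48.4 CPM) and Gzma at day +14 (222 against 516 CPM). At day +7, 1 in place of 0 was also lower with limits of 12 and 1 UMIs. With cells thinned to 2000, 3 pairs in place of 5 had an odds ratio of 2 or more at day +7. With a minimum of 50 CPM, 1.03% of genes in place of 2.08% were higher by 2-fold or more in the CD8 gate, and the 6 genes were not recounted there, since Gzmc and Gzmm fall below that minimum. Apart from these constructions, the cause was not tested. Leaving out the top cell, the shared barcodes or the non-T level was chosen after seeing the data.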
